A study of Mus musculus with 29 samples.

Results

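The DNA replication genes described here are 44 genes chosen by symbol, of 55376 gene symbols counted in each RNA-seq library of mouse hematopoietic stem cells (HSCs). They comprise 8 origin licensing genes (Orc1 to Orc6, Cdc6 and Cdt1), 6 genes of the MCM helicase (Mcm2 to Mcm7), 6 helicase activation genes (Cdc45, Gins1 to Gins4 and Mcm10), 9 polymerase and primase genes (Pola1, Pola2, Prim1, Prim2, Pold1, Pold2, Pold3, Pole and Pole2), 6 genes of the sliding clamp and its loader (Pcna and Rfc1 to Rfc5), 2 genes of Okazaki fragment maturation (Fen1 and Lig1), 3 genes of the single-stranded DNA binding protein RPA (Rpa1 to Rpa3) and 4 genes of nucleotide supply (Rrm1, Rrm2, Tyms and Tk1). The rule is a list of symbols for the parts of the replication machinery and uses no measured value. Each of the 44 had reads in every one of the 19 libraries, from 203 to 47647 of them, and each passed the filter on low counts.

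The study set HSCs of wild-type (WT) mice beside HSCs of mice that lack Gadd45b, a stress-response gene of the Gadd45 family, in young and in old animals. The 4 groups were young WT (YWT, 4 libraries), old WT (OWT, 4), young Gadd45b knockout (YKO, 4) and old Gadd45b knockout (OKO, 7), with no treatment beyond age and genotype, and with age given only as young or old. The knockout is germline, so every cell of the mouse lacks the gene and not HSCs alone. For RNA-seq the methods of the study list more OWT and YKO samples than the libraries analysed here. The labels call all animals female. The methods speak of both sexes, and 7 of the 19 libraries, from all 4 groups, held Y-linked RNA at 10 or more CPM (read counts relative to the scaled library total). The labels do not say whether each library is 1 mouse or a pool, so p-values measure the spread between libraries.

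Library totals ranged from 22197555 to 77970627 counts, and CPM values below are scaled by the TMM method of edgeR. Gadd45b itself, the targeted gene, ranged over 7.34 to 17.5 CPM in YWT, 10.1 to 15.5 in OWT, 5.14 to 14.3 in YKO and 2.84 to 6.94 in OKO. YKO and YWT overlapped in it, so the label of a YKO library has no check from the gene here, and every direction drawn from YKO rests on that label. Which part of the gene was removed is not given in the sources used here. Titles with the prefix IB15 mark all OWT libraries and OKO4 to OKO7. YWT, YKO and OKO1 to OKO3 have no prefix. The prefix is treated as a batch, and age in WT cannot be told apart from it. Age in the knockout is mixed with it in part, since OKO4 to OKO7 have the prefix and YKO does not. The HSC markers Kit, Hlf and Slamf1 were present in all libraries, at no less than 752, 138 and 42.4 CPM. Hlf was at 230 to 350 CPM in YWT, 315 to 492 in OWT, 150 to 229 in YKO and 138 to 372 in OKO. All YKO libraries thus lay below all YWT libraries in Hlf, as they did for 3.01% of all genes tested. Kit and Slamf1 overlapped between these 2 groups. Kit was at 910 to 1220 CPM in YWT and 880 to 1228 in YKO, and Slamf1 at 44.7 to 56.9 and 42.4 to 63.6. OKO1, OKO2 and OKO3 had 27972, 20579 and 19725 genes over 1 CPM, and the next was YWT4 with 19626. The TMM factors of OKO1 and OKO3 were the highest, at 1.83 and 1.41.

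DNA is copied once per cell cycle. The origin recognition complex, with the loading factors CDC6 and CDT1, places MCM2-7 rings on DNA in G1 phase, and CDC45, the GINS complex and MCM10 turn those rings into active helicases in S phase. DNA polymerase alpha with its primase starts each strand, polymerases delta and epsilon extend it on the PCNA clamp that RFC loads, RPA shields the exposed single strands, and FEN1 and LIG1 finish the Okazaki fragments of the lagging strand. Most HSCs of an adult mouse are quiescent, and many of these genes are E2F targets that are transcribed as cells prepare for S phase.

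E2F factors bind sequences of the form TTTCGCGC or TTTGGCGC, and 3 stretches of promoter are shown because they hold such letters upstream of 2 helicase genes with high levels and of Pola1, whose order of libraries was unlike that of most members. They are RefSeq sequence of build GRCm38.p6, written 5′ to 3′ along the strand of the gene, with the matching letters of either orientation in capitals. The Mcm5 stretch is chr8:75109319-75109398 on the plus strand, 190 to 111 bases before the RefSeq start of the gene (75109509, which is 60 bases upstream of the GENCODE M21 start given below), where the 2 matches overlap. The Mcm6 stretch is chr1:128359736-128359835 on the minus strand, 130 to 31 bases before the RefSeq start (128359705, 41 bases upstream of the GENCODE M21 start), with 2 overlapping matches and 1 more. The Pola1 stretch is chrX:93632266-93632325 on the minus strand, 170 to 111 bases before the start, which both annotations place at 93632155, with 1 match. None of the 3 stretches overlaps an exon of GENCODE M21.
Mcm5: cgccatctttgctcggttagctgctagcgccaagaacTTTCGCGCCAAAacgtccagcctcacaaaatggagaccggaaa
Mcm6: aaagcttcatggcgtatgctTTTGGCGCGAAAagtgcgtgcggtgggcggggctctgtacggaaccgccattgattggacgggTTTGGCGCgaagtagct
Pola1: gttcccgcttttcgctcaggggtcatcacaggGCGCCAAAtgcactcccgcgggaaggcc

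Of the 44 members, 37 matched a promoter in the RefSeq table, which runs from 250 bases before to 50 bases after each start. The letters TTTCGCGC or TTTGGCGC, on either strand, stood in the window of 10 of these 37 genes (27.0%), namely Orc1, Cdt1, Mcm3, Mcm5, Mcm6, Mcm7, Pola1, Pole2, Rfc3 and Lig1. The same letters stood in the windows of 251 of all 27025 genes of the table (0.929%) and in 3 of 30 matched genes of a list of other replication genes. Between OKO and YKO the 10 members with a match had a median log2 fold change of -1.05 and the 27 without one -0.72. Pola1 and Rfc3 hold a match, and their log2 fold changes of -0.51 and -0.36 were nearer to 0 than either median. These matches describe the sequence and were not tested for binding.

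The 44 genes differed in level, given here as CPM per kilobase of exon (exons of GENCODE M21 on mm10, which lies on the same coordinates as GRCm38). In YWT the highest levels were those of Mcm6, at 132 ± 22.4 (SD, n = 4), and Mcm3, at 96.9 ± 14.2 (SD, n = 4). Mcm5 (73.9 ± 13.0), Mcm7 (70.5 ± 13.7), Pcna (69.9 ± 10.8) and Fen1 (67.4 ± 16.7) followed, and these 4 did not differ beyond their spread. The lowest were Orc1, at 3.97 ± 1.28 CPM per kilobase, then Pole2 (5.49 ± 0.937) and Mcm10 (5.54 ± 1.82). These 3 lowest genes lay within each other's spread. In the exons of 17 members another annotated gene overlaps, including Cops6 and Ap4m1 at Mcm7 and Tmem258 at Fen1, and strand use in counting is not given in the sources used here.

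**Figure D1:**
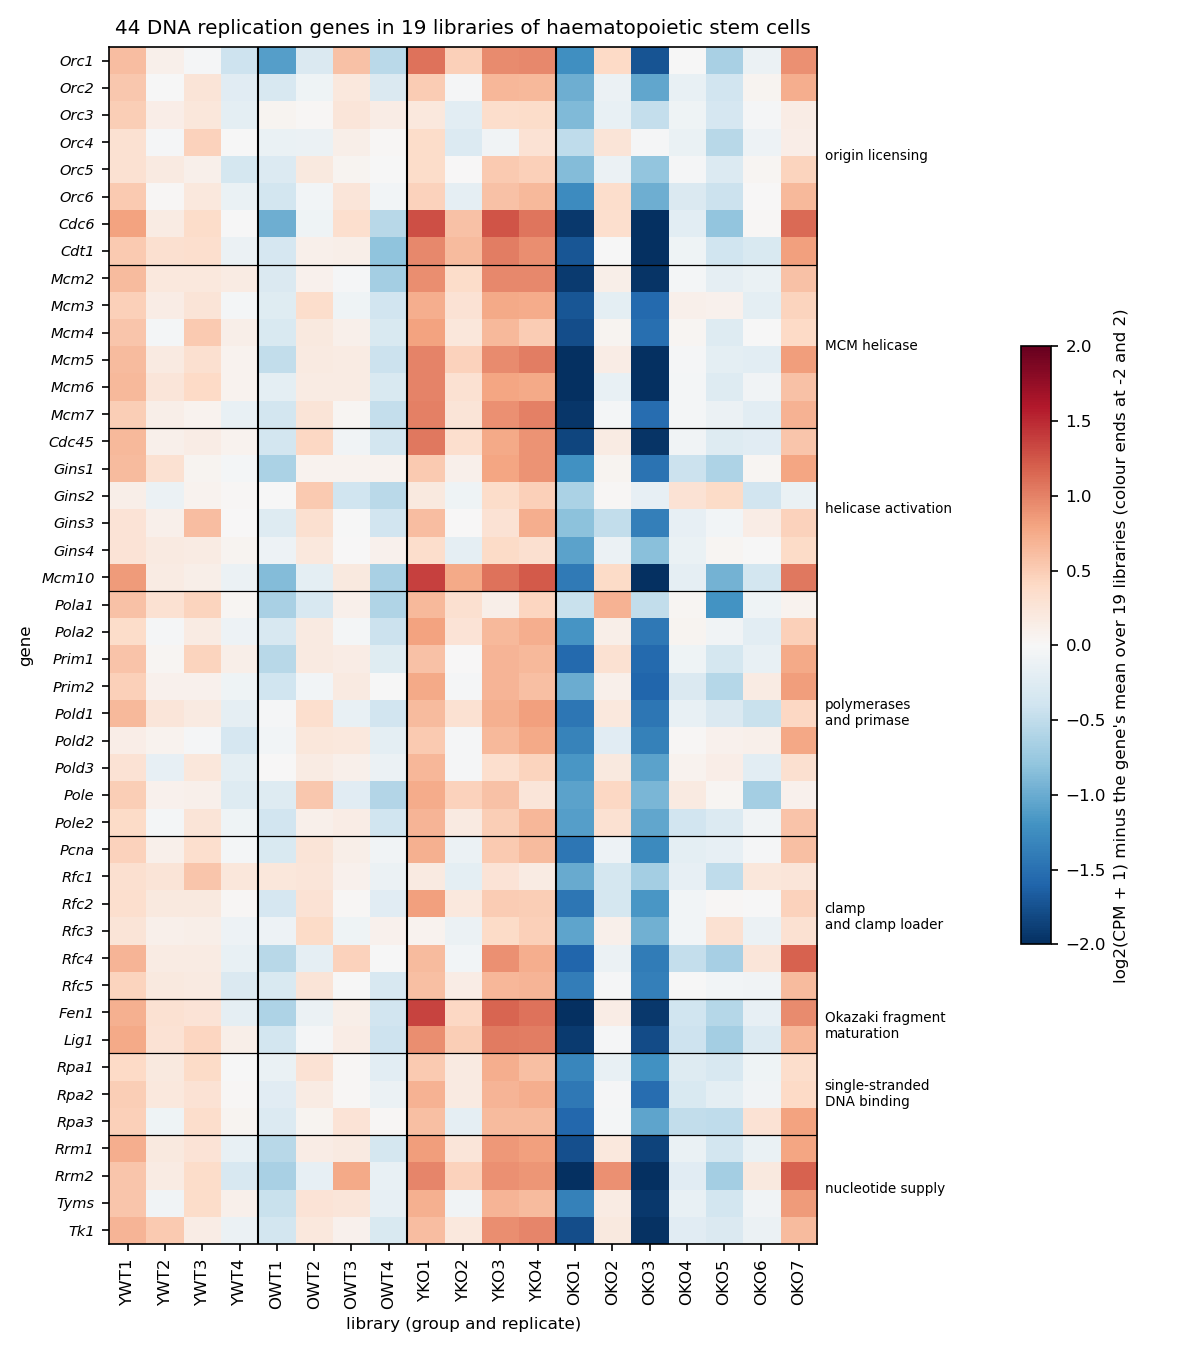
Level of each of the 44 genes (rows, grouped by role) in each of the 19 libraries (columns, grouped as YWT, OWT, YKO and OKO), as log2(CPM + 1) minus the gene's mean over all libraries. OKO1 and OKO3 are the 2 lowest libraries for 41 of the 44 genes. The highest is a YKO library for 29 genes and OKO7 for 10.

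The members varied together from library to library. The library means of the 44 genes held 81.6% of the sum of squares of the log2(CPM + 1) deviations, and the mean SD of a member over the 19 libraries was 0.64, and 0.26 once the mean of its library was subtracted. Among Mcm2 to Mcm7, which form 1 hetero-hexamer, it was 0.77, and 0.14 when their own library mean was subtracted. The genes of a library share its depth and scaling. RNA was read in bulk, so fewer cells in S phase and less RNA per cell cannot be told apart.

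The ratio of the highest to the lowest library ranged from 2.06 for Orc4 to 20.1 for Cdc6, with a median of 5.06, and it was 5 or more for 22 members. OKO1 or OKO3 was the lowest library for 42 of the 44 members, and both together were the lowest pair for 41. In OKO1, 43 members lay below every YWT, OWT and YKO library, and in OKO3, 41 did. OKO2, of the same batch, lay above both for all 44. OKO7 lay above every OWT library for 39 members and above the lowest YKO library for 41, so the OKO group spans nearly the whole range of the series.

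**Figure D2:**
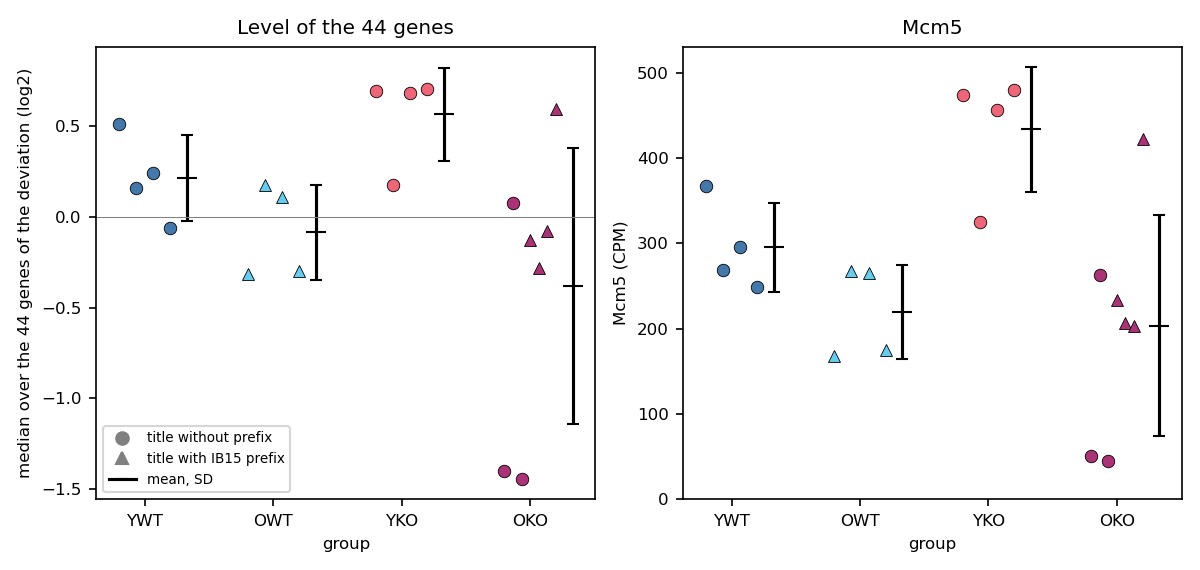
Left, the median over the 44 genes of the deviation in log2(CPM + 1) from each gene's mean, for each library by group. Right, CPM of Mcm5. Circles are libraries without a title prefix and triangles those with IB15, and the bars are the mean and SD. The OKO points run from -1.44 (OKO3) to 0.59 (OKO7), a wider range than in the other 3 groups.

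As 1 value per library, the median deviation of the 44 genes averaged 0.21 ± 0.24 in YWT, -0.08 ± 0.26 in OWT and 0.56 ± 0.26 in YKO (each SD, n = 4), against -0.38 ± 0.76 in OKO (SD, n = 7), on the log2 scale. YKO1, YKO3 and YKO4 stood together at 0.69, 0.68 and 0.70, and YKO2 at 0.18. In OKO the values were -1.40 in OKO1, 0.08 in OKO2, -1.44 in OKO3, -0.13 in OKO4, -0.28 in OKO5, -0.08 in OKO6 and 0.59 in OKO7.

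Of the helicase genes, Mcm5 (ENSMUSG00000005410.6, chromosome 8, 75109569 to 75128439, plus strand), a subunit of the MCM ring whose promoter is printed above, was at 367, 269, 296 and 249 CPM in YWT, 168, 268, 266 and 175 in OWT, and 474, 325, 456 and 480 in YKO. In OKO it ran from 44.8 in OKO3 over a median of 207 to 422 in OKO7. The YKO libraries other than YKO2 lay above all YWT libraries, and 6 of the 7 OKO libraries lay below all YKO libraries. Mcm2 was at 434, 325, 323 and 314 CPM in YWT, 229, 296, 274 and 174 in OWT, 536, 363, 548 and 546 in YKO, and between 70.8 and 420 in OKO (median 255). Mcm7 was at 397, 303, 295 and 253 CPM in YWT, 218, 335, 289 and 202 in OWT, 564, 335, 529 and 565 in YKO, and between 71.8 and 452 in OKO (median 258). In both genes OKO1 and OKO3 were again the lowest libraries.

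Among the licensing genes, Cdc6 (ENSMUSG00000017499.15, chromosome 11, 98907801 to 98923940, plus strand) had the widest range of all members. This ATPase loads MCM rings at origins. It was at 80.2, 50.7, 58.6 and 45.0 CPM in YWT, 22.4, 42.8, 57.3 and 30.5 in OWT, 112, 68.6, 109 and 96.0 in YKO, and between 5.61 and 100.5 in OKO (median 39.1). Orc1, the subunit of the origin recognition complex whose level follows the cell cycle, was at 19.9, 13.6, 12.4 and 9.27 CPM in YWT, 5.38, 10.2, 19.5 and 8.43 in OWT, 28.1, 18.0, 25.2 and 25.5 in YKO, and between 3.15 and 24.9 in OKO (median 11.6). For both genes OKO7 reached the YKO range and 6 of 7 OKO libraries lay under it.

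The other subunits of the origin recognition complex were steadier. Orc4 was at 52.3, 41.4, 58.1 and 41.6 CPM in YWT, 38.2, 38.7, 45.5 and 42.5 in OWT, 54.3, 34.4, 40.1 and 51.5 in YKO, and between 28.2 and 50.2 in OKO (median 39.2), so all 4 groups overlapped. Orc3 was at 118, 91.6, 98.2 and 73.0 CPM in YWT, 86.7, 84.6, 99.0 and 93.0 in OWT, 96.6, 72.0, 107 and 108 in YKO, and between 44.7 and 92.5 in OKO (median 75.3). The lowest Orc4 library was OKO5 and not OKO1 or OKO3.

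Of the activation genes, Cdc45, which joins the MCM ring to make it an active helicase, was at 48.0, 32.5, 33.3 and 31.6 CPM in YWT, 23.0, 40.4, 28.6 and 23.0 in OWT, 63.7, 38.1, 51.4 and 56.8 in YKO, and between 6.94 and 44.7 in OKO (median 25.7). Gins2, a subunit of GINS, was at 84.7, 71.5, 81.8 and 79.4 CPM in YWT, 77.9, 112, 59.2 and 53.7 in OWT, 89.8, 73.8, 101 and 109 in YKO, and between 49.8 and 102 in OKO (median 70.8). Gins2 thus varied 2.25 times between its extreme libraries and Cdc45 9.18 times, although their products work in 1 complex.

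At the fork, Pola1, the catalytic subunit of polymerase alpha, departed from the common order. It was at 70.5, 57.9, 64.2 and 48.0 CPM in YWT, 29.5, 37.0, 50.2 and 30.3 in OWT, 74.0, 58.4, 50.5 and 63.4 in YKO, and between 19.8 (OKO5) and 75.8 (OKO2) in OKO (median 43.9). In OKO1 it lay 0.95 (log2) above the level that the mean of the 44 genes gave for that library. Its partner Pola2 was at 111, 84.6, 96.2 and 79.6 CPM in YWT, 68.5, 97.2, 83.5 and 63.6 in OWT, 151, 105, 135 and 143 in YKO, and between 31.3 and 120 in OKO (median 82.0), in the common order. Pold3, an accessory subunit of polymerase delta, was at 89.9, 65.5, 85.8 and 63.8 CPM in YWT, 73.5, 82.6, 78.3 and 67.5 in OWT, 116, 72.4, 92.6 and 100 in YKO, and between 32.2 and 91.6 in OKO (median 76.7).

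The clamp gene Pcna was at 197, 154, 180 and 139 CPM in YWT, 115, 170, 155 and 136 in OWT, 234, 131, 206 and 223 in YKO, and between 51.5 and 216 in OKO (median 128). Pcna has 2 annotated processed pseudogenes that may share reads with it, as Tyms has 1. Rfc1, the large subunit of the clamp loader, was at 108, 103, 126 and 101 CPM in YWT, 101, 102, 91.3 and 79.7 in OWT, 98.2, 74.7, 105 and 96.9 in YKO, and between 42.4 and 102 in OKO (median 67.5). Rfc3, a small subunit of the loader, was at 57.9, 51.9, 52.2 and 45.1 CPM in YWT, 45.1, 63.4, 45.2 and 51.1 in OWT, 50.9, 44.2, 63.2 and 67.8 in YKO, and between 22.6 and 59.7 in OKO (median 46.7). Neither loader gene put its YKO libraries above YWT as a group.

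The genes that finish Okazaki fragments had some of the widest differences. Fen1, the flap endonuclease, was at 215, 163, 159 and 116 CPM in YWT, 85.9, 121, 142 and 101 in OWT, 337, 177, 295 and 280 in YKO, and between 28.8 and 255 in OKO (median 99.5). Lig1, the ligase that seals the fragments (ENSMUSG00000056394.17, chromosome 7, 13277283 to 13311433, plus strand), was at 180, 130, 143 and 115 CPM in YWT, 82.4, 105, 117 and 78.9 in OWT, 203, 149, 220 and 216 in YKO, and between 27.3 and 168 in OKO (median 79.5). In both, 6 of 7 OKO libraries lay below all 4 YKO libraries.

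Of the RPA genes, Rpa1 was at 201, 176, 198 and 151 CPM in YWT, 138, 186, 156 and 132 in OWT, 220, 172, 253 and 231 in YKO, and between 61.0 and 195 in OKO (median 128). Rpa2 was at 138, 113, 120 and 99.3 CPM in YWT, 83.6, 110, 99.8 and 89.8 in OWT, 160, 110, 156 and 163 in YKO, and between 33.2 and 130 in OKO (median 84.9). Rpa2 followed the common level most closely of all members, with an SD of 0.10 (log2) around the library means. Rrm2, the small subunit of ribonucleotide reductase, had the largest SD around the library means, at 0.53, and lay farthest from them in OKO3, at -1.41. Its plain SD over the libraries was also wide, at 1.07. Rrm2 was at 101, 76.8, 88.2 and 54.3 CPM in YWT, 43.4, 60.8, 117 and 61.3 in OWT, 135, 94.2, 129 and 127 in YKO, and between 8.69 and 156 in OKO (median 58.4).

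Whether knockout HSCs differ in these genes with age was asked by OKO vs YKO. All 44 members had a lower fitted level in OKO, from Orc4 at a log2 fold change of -0.21 to Mcm10, a factor that helps to activate the helicase, at -1.35, with standard errors from 0.18 to 0.50 and a median of -0.75. Scaled by library total alone, an alternative chosen after seeing the data, 43 of the 44 were lower. Without the 7 libraries that hold Y-linked RNA, which leaves YKO1, YKO2 and 5 OKO libraries, 42 were lower and the median was -0.45. The median over all 33690 genes tested was 0.23, and 38.2% of them had a negative fold change. A gene was called where edgeR's quasi-likelihood p, adjusted by Benjamini-Hochberg over all genes tested, was below 0.05 with a change of more than 1.5-fold. By this rule 0 of the 44 members were called in either direction, where 0.692% of all genes were called lower and 0.597% higher. An unadjusted p under 0.05 was reached by 34 of the 44 members and by 15.8% of all genes. DESeq2 with the same thresholds called 16 members lower, where it called 2.6% of all genes lower.

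**Figure D3:**
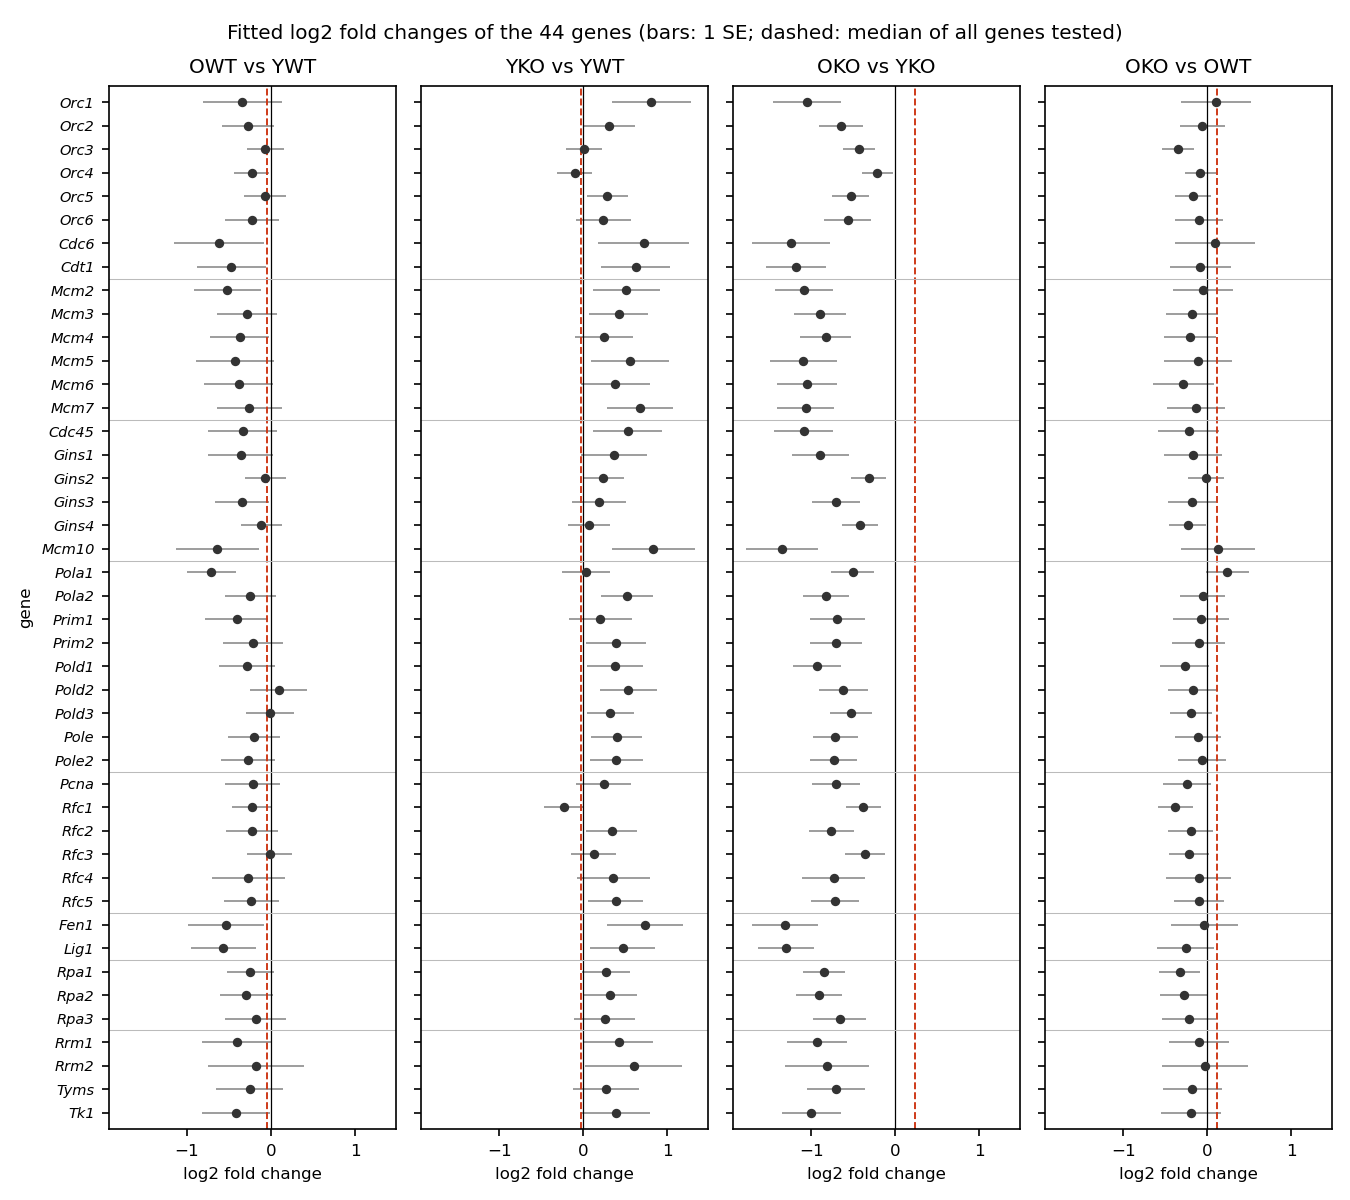
Fitted log2 fold change of each of the 44 genes (rows, grouped by role) in 4 comparisons, with bars of 1 SE. The solid line is 0 and the dashed line the median of all 33690 genes tested. In OKO vs YKO all 44 points lie left of 0, and in OKO vs OWT they lie close to it.

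The lowest p in OKO vs YKO was that of Lig1, with a log2 fold change of -1.30 (SE 0.33, edgeR adjusted p = 0.0571), followed by Rpa1, with -0.85 (SE 0.25, edgeR adjusted p = 0.0891), and Fen1, with -1.31 (SE 0.39, edgeR adjusted p = 0.0983). Taken as single values on log2(CPM + 1), each of these 3 genes gave p = 0.0121 in an exact permutation test (two-sided, 4 against 7 libraries, where the smallest possible p is 0.00606), and 27 of the 44 members had an exact p under 0.05 before any adjustment, as did 12.7% of all genes. The highest p values were those of Orc4 (-0.21, SE 0.18, edgeR adjusted p = 0.593) and Gins2 (-0.32, SE 0.21, edgeR adjusted p = 0.481). By role, the median log2 fold change was -1.30 for Okazaki fragment maturation, -1.06 for the MCM helicase, -0.87 for nucleotide supply, -0.85 for RPA, -0.80 for helicase activation, -0.71 for the clamp and its loader, -0.71 for polymerases and primase, and -0.61 for origin licensing. The licensing genes were divided, with Cdc6, Cdt1 and Orc1 at -1.24, -1.18 and -1.05 and the other 5 between -0.64 and -0.21.

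The count of calls differed with the OKO libraries that entered. Within the libraries that have no title prefix, OKO1, OKO2 and OKO3 against the 4 YKO libraries, 37 of the 44 members fell by the edgeR test, where 11.6% of all genes were called lower, with Lig1 at -1.82 (SE 0.36, edgeR adjusted p = 0.00534), Mcm5 at -1.81 (SE 0.45, edgeR adjusted p = 0.0137) and Cdc6 at -1.90 (SE 0.54, edgeR adjusted p = 0.0241). The 7 members not called there were Orc4, Orc6, Gins2, Pola1, Pole, Rfc3 and Rrm2. With the prefix as a covariate for all 19 libraries, 38 members fell, where 13.4% of all genes were called lower. OKO alone has libraries with and without the prefix, so OKO1 to OKO3 against OKO4 to OKO7 set that covariate. This fit is therefore not independent of the one within the libraries that have no prefix. Without OKO7 alone, 25 members fell, where 3.25% of all genes were called lower. With OKO4 to OKO7 and without OKO1 to OKO3, an alternative chosen after seeing the data, 0 were called, where 0.3% of all genes were called lower. All 44 fold changes were negative there, with a median of -0.51. OKO4 to OKO7 all have the prefix and no YKO library does, so age and prefix cannot be told apart in that fit.

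**Figure D4:**
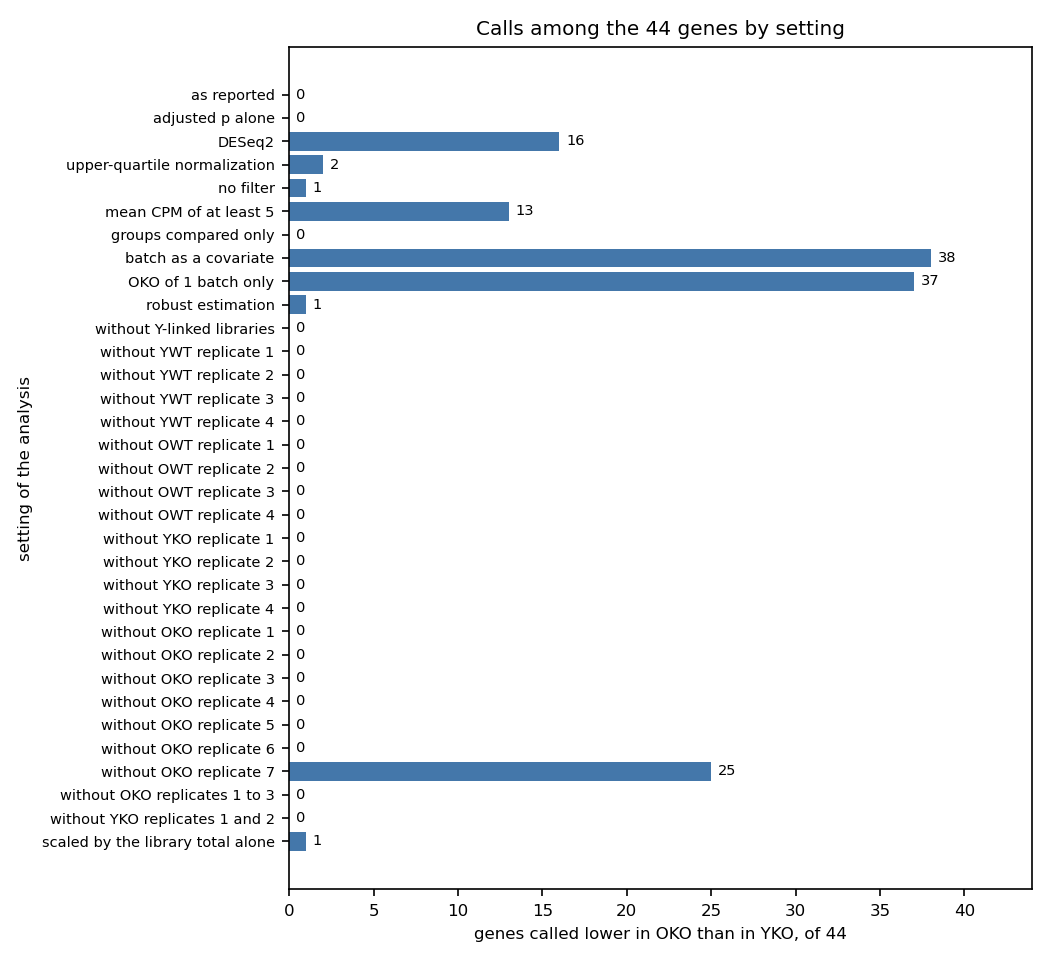
Number of the 44 genes called lower in OKO than in YKO (bars, horizontal axis from 0 to 44), by setting (rows). The rows are the test as reported and the alternatives other than the replicate block, which gave 25 and is not drawn. The count was 0 as reported, 16 with DESeq2, 38 with batch as a covariate and 25 without OKO replicate 7.

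Young knockout HSCs were compared with young WT HSCs in YKO vs YWT. Here 42 of the 44 members had a higher fitted level in YKO, and Orc4 (-0.10) and Rfc1 (-0.23) a lower one. The median log2 fold change was 0.37, against -0.02 over all genes. Without the libraries that hold Y-linked RNA, which leaves YKO1, YKO2, YWT1 and YWT2, the median was 0.07, with 30 members higher and 14 lower. In the fit of all libraries the largest were those of Mcm10 (0.83, SE 0.49) and Orc1 (0.81, SE 0.47). None of the 44 passed by edgeR (0.0267% of all genes did) or by DESeq2. No member had an unadjusted edgeR p under 0.05, where 4.59% of all genes had one. All edgeR adjusted p values of the members rounded to 1. In 30 members YKO1, YKO3 and YKO4 lay above every YWT library, and YKO2 was the lowest YKO library in 42 of the 44. YKO2 was set aside in that count after its values were seen, and the share of all genes so placed was not computed. Cdt1, which brings MCM rings to origins, was the 1 member with all 4 YKO libraries above all 4 YWT libraries, where 2.12% of all genes did (log2 fold change 0.62; two-sided p = 0.0286 by exact permutation, which 4 against 4 libraries cannot go below; 5.12% of all genes had an exact p under 0.05). The lowest p values of the fit were those of Mcm7 (0.67, SE 0.39), Orc1 and Pola2 (0.52, SE 0.31), and the highest those of Pola1 (0.03, SE 0.29) and Orc3 (0.01, SE 0.22).

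In WT mice, 43 of the 44 members had a lower fitted level in OWT than in YWT, the exception being Pold2, a subunit of polymerase delta, at a log2 fold change of 0.09. The median was -0.27, against -0.05 over all genes, and -0.18 without YWT1. None passed by edgeR (0.00297% of all genes did) or by DESeq2. An unadjusted edgeR p under 0.05 was reached by 1 of the 44 members and by 4.38% of all genes. That member was Pola1, at a log2 fold change of -0.71 (SE 0.29, edgeR adjusted p = 1). Lig1 followed at -0.57 (SE 0.39) and Mcm2 at -0.52 (SE 0.40), while Rfc3 and Pold3 stood at -0.02 and -0.01. Mcm2 was the 1 member with all 4 OWT libraries below all 4 YWT libraries, where 1.9% of all genes were so placed (exact permutation test, two-sided, p = 0.0286; 4.13% of all genes had an exact p under 0.05). With the prefix as a covariate, for which OKO is the group with libraries of both kinds, the median became -1.13 and still 0 members passed.

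Old knockout and old WT HSCs were compared in OKO vs OWT. Here 40 of the 44 fold changes were negative, with a median of -0.15 against 0.12 over all genes, and a range from -0.38 (Rfc1) to 0.24 (Pola1). The direction of the median depends on the scaling, at 0.02 with upper-quartile normalization and 0.01 by library total alone, and it was 0.16 within the IB15 libraries and 0.07 without the libraries that hold Y-linked RNA. It also depends on single libraries, at -0.36 without OKO7, and at -0.01 without OKO3, when 24 of the 44 were negative, as 23 were without OKO1. None passed by edgeR (0.0327% of all genes did) or by DESeq2. No member had an unadjusted edgeR p under 0.05, where 8.14% of all genes had one. The lowest p values belonged to Orc3 (-0.35, SE 0.19, edgeR adjusted p = 0.592; 6 of 7 OKO libraries below every OWT library; exact permutation p = 0.0242, two-sided, the 1 member under 0.05, where 6.25% of all genes were), Rfc1 (-0.38, SE 0.21) and Rpa1 (-0.33, SE 0.25), and the highest to Gins2 (-0.01, SE 0.22) and Rrm2 (-0.02, SE 0.51). A p that misses the threshold does not show equal levels, since OKO1 and OKO3 lay far below OWT and OKO7 above it.

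Whether the age difference itself depended on genotype was tested as an interaction. The median over the 44 members was -0.52 on the log2 scale, with 42 negative values, from Mcm7 at -0.81 to Pola1 at 0.20, and standard errors from 0.28 to 0.77. By edgeR on the adjusted p alone, 0 members passed, where 0% of all genes did, and the lowest adjusted p of a member was 0.811. DESeq2 also called 0, and no member had an unadjusted edgeR p under 0.05, where 4.62% of all genes had one. With OKO1 to OKO3 as the OKO libraries the median was -1.02 and the lowest edgeR adjusted p 0.0653, still with 0 members called. Of all 35140 genes tested in that fit, 98 were called negative and 65 positive. Its WT part still sets libraries with the prefix against libraries without it. With OKO4 to OKO7 alone the median was -0.20. Without the libraries that hold Y-linked RNA it was -0.03, with 25 negative and 19 positive values. It was -0.29 at a mean CPM of at least 5 and by library total alone, and -0.22 with the prefix as a covariate. The 4 comparisons share groups (each of the 4 groups enters 2 of them), so their values are given side by side and not as independent results.

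A list of 38 other replication genes, drawn from the same process, was read beside the members. In OKO vs YKO, 35 of the 38 had a negative fold change, with a median of -0.64. An unadjusted edgeR p under 0.05 was reached by 28 of the 38 and by 15.8% of all genes. Ticrr, the TopBP1-interacting factor that helps to start origins, was the 1 gene called by edgeR. It was at 26.4, 15.8, 21.7 and 15.1 CPM in YWT, 12.5, 21.2, 17.7 and 16.5 in OWT, 42.7, 35.0, 37.2 and 33.4 in YKO, and between 8.82 and 28.9 in OKO (median 15.8), so that all 7 OKO libraries lay below all 4 YKO libraries, as for 1.48% of all genes. It fell by 1.14 on the log2 scale (SE 0.28, edgeR adjusted p = 0.0420), a call lost, at adjusted p from 0.0539 to 0.172, without any 1 of YKO1 to YKO4, OKO1 or OKO3 to OKO6. Timeless, of the fork protection complex, was at 121, 69.7, 124 and 111 CPM in YKO and between 9.23 and 80.3 in OKO (median 37.6), with a log2 fold change of -1.44 (SE 0.39, edgeR adjusted p = 0.0701).

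Rrm2b had the opposite signs in YKO vs YWT and in OKO vs YKO. In OKO vs OWT it was lower, as most members were. It encodes the p53-inducible small subunit of ribonucleotide reductase, which serves cells outside S phase, in place of RRM2. It was at 19.5, 19.1, 25.8 and 16.0 CPM in YWT, 23.2, 24.9, 19.7 and 18.1 in OWT, 11.6, 9.54, 10.7 and 13.1 in YKO, and between 12.9 and 22.1 in OKO (median 17.9). All 4 YKO libraries lay below all 4 YWT libraries, as for 3.01% of all genes (log2 fold change -0.84, SE 0.22, edgeR adjusted p = 0.353), and 6 of 7 OKO libraries lay above all YKO libraries (0.65, SE 0.20, edgeR adjusted p = 0.106). Samhd1, which breaks down deoxynucleotides, stood at -0.09 (SE 0.22, edgeR adjusted p = 0.850) in OKO vs YKO, between 52.1 and 98.4 CPM in OKO and between 58.8 and 117 in YKO.

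**Figure D5:**
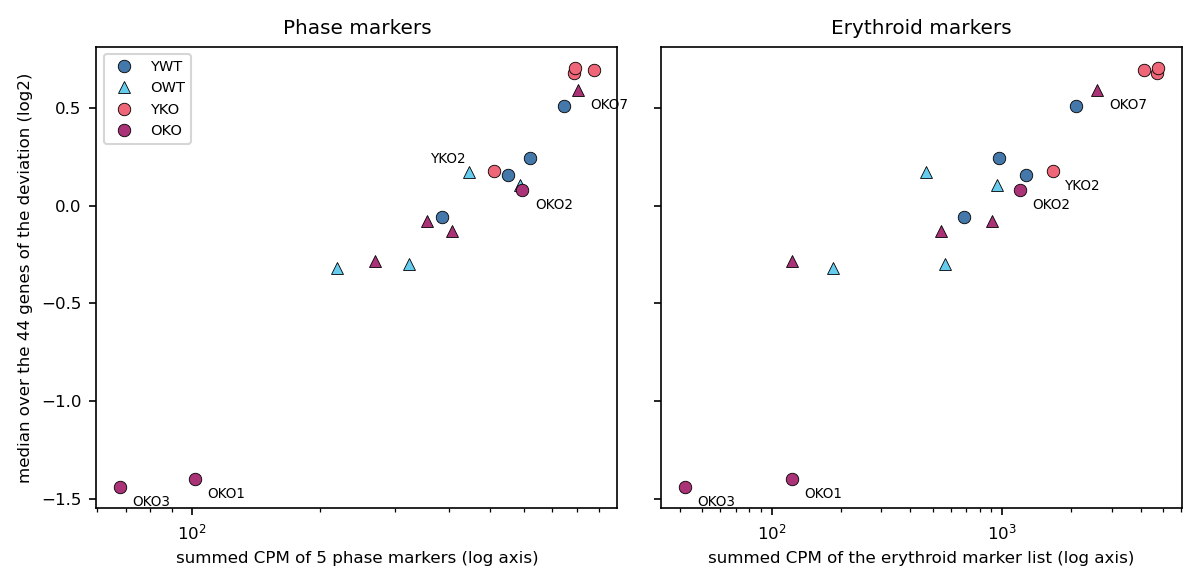
Median deviation of the 44 genes (vertical axis, log2) against the summed CPM of 5 phase markers (left) and of 9 erythroid markers (right), both on log axes, with 1 point per library, coloured by group, circles without and triangles with the IB15 prefix. OKO1 and OKO3 lie at the lower left of both plots and YKO1, YKO3, YKO4 and OKO7 at the upper right. YWT1 is next in deviation, at 0.51, and YKO2 stands at 0.18.

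Lists of other cell types and of the cell cycle are given beside the members. The summed level of Mki67, Top2a, Ccna2, Cdk1 and Ccnb1, which mark S, G2 and M phase, ran from 511 to 875 CPM in YKO, 387 to 747 in YWT, 219 to 588 in OWT and 68.0 to 804 in OKO, with 68.0 in OKO3, 102 in OKO1 and 804 in OKO7. The summed level of the 9 erythroid markers ran from 1659 to 4778 CPM in YKO, 687 to 2102 in YWT, 185 to 955 in OWT and 42.0 to 2577 in OKO, and all 9 had a mean of at least 1 CPM in each group. Of these, Car1 was the most abundant, at 1071 to 3218 CPM in YKO, and in OKO from 10.1 in OKO3 to 2061 in OKO7, while hemoglobin Hbb-bs was at 143 to 544 CPM in YKO and 6.59 to 50.8 in OKO. The 8 B cell markers ran from 194 to 1457 CPM in YKO, 215 to 645 in YWT, 68.8 to 217 in OWT and 29.0 to 206 in OKO. The highest sums were those of YKO1 and YKO2, while YKO3 (243) and YKO4 (194) did not exceed the YWT range. Granulocyte markers were highest in OWT, with a sum of 609 to 897 CPM against 211 to 404 in YWT, 50.6 to 291 in YKO and 203 to 607 in OKO. Plasma cell markers reached 25573 CPM in YWT2 and 12846 in YKO2. T cell markers summed to 24.8 to 113 CPM in YKO and to at most 41.0 in any other library. Without YKO1 and YKO2, an alternative chosen after seeing the data, 0 members were called in OKO vs YKO and the median was -0.84. Of all 38759 genes tested there, 16 were called lower and 5 higher, so few calls were made for any gene. The part of these cell types or of cell cycle phase in the differences of the 44 genes was not tested.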

How the data were processed

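HSCs were profiled by RNA-seq, and the 19 libraries analysed here were made with the SMART-seq v4 kit. The authors trimmed the reads with Trim Galore 0.4.3, aligned them to mm10 with STAR and a GENCODE M22 index, and deposited for every library a table of raw counts per gene symbol, made with featureCounts. Strand use and mate counting are not given in the sources used here. The bisulfite libraries of the study were not analysed here.

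Counts were filtered with filterByExpr and scaled by TMM, and 33690 genes were tested with edgeR 4.0.16 (quasi-likelihood, R 4.3.3) in a joint model of the 19 libraries that held the 4 group means alone. Calls needed a p below 0.05 after Benjamini-Hochberg adjustment together with a change of more than 1.5-fold, except that the interaction was judged on adjusted p. DESeq2 1.42.0, the tool named in the methods of the study, was an alternative. Before logarithms 1 was added to CPM. Single genes were tested with exact permutation (scipy 1.17.1). The fit was tested on simulated data. The 44 genes and all lists were chosen with earlier results of these data known. Named genes are 9 fixed members and, in each pairwise comparison, the 3 members with the lowest and the 2 with the highest p, plus, of the other replication genes, the 3 with the lowest p in OKO vs YKO, Rrm2b and Samhd1. Other genes named for an extreme value were chosen after their values were seen. Positions are those of GENCODE M21 (44 of 44 symbols matched).

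Besides DESeq2, the alternatives were upper-quartile scaling, a filter at a mean of 5 CPM or none, no fold threshold, a fit on the 2 groups compared, the title prefix as a covariate, OKO libraries of a single prefix, the replicate block, robust estimation, removal of the libraries with Y-linked RNA, and leaving out each library. Scaling by library total, and leaving out OKO1 to OKO3 or YKO1 and YKO2, were added after seeing the data. 1 marker gene of the HSC list is not reported here.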

Additional observations from a re-analysis of the deposited data

Results flagged for a closer look

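Among the named genes, 96 groups of values were examined for a single high or low library that lay outside the spread of the rest, and 6 were found. A rate of 1 in 20 would give about 4.8 if the groups were independent. The genes share libraries and vary together, so that number is no measure of chance here. In YKO the far library was YKO2, low for Mcm2 (363 CPM), Mcm5 (325 CPM), Mcm7 (335 CPM) and Rpa2 (110 CPM). In YWT it was YWT1, high for Mcm2 (434 CPM) and Cdc45 (48.0 CPM). YKO2 also had the highest B cell marker sum of all libraries, at 1457 CPM, and its part in these values was not tested.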

How the results depend on the processing

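In OKO vs YKO the 0 calls became 16 with DESeq2, 2 with upper-quartile normalization (1.09% of all genes were called lower), 1 without a filter (0.538%), 13 at a mean CPM of at least 5 (3.17%), 38 with batch as a covariate, 37 with the OKO libraries of 1 batch, 1 with robust estimation (0.79%) and 1 by library total alone (0.608%), all lower in OKO. Leaving out each library in turn gave between 0 and 25 calls, 25 without OKO7. With batch as a covariate the median log2 fold change was -1.32 in OKO vs YKO and -1.13 in OWT vs YWT. OKO alone has libraries of both batches, so the covariate rests on OKO1 to OKO3 against OKO4 to OKO7. The 38 calls and the 37 are thus not independent results. The other 4 comparisons gave 0 calls of members under every alternative run. The replicate block gave 25 calls in OKO vs YKO, where 3.46% of all genes were called lower, and medians of -1.20 there, -0.56 in OKO vs OWT and -0.94 for the interaction, but the numbers are not shown to pair libraries: of 24 pairs of same-numbered libraries, 5 had a correlation of deviations over 0.1, and the values ran from -0.47 to 0.30. No named gene reversed while past the threshold. Depth was at least 203 counts for every member in every library, so the spread between libraries, and not counting, limits these comparisons.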
